A study of Rattus norvegicus with 35 samples.

Results

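The 7 transcription factors Gata6, Gata4, Gata5, Sox17, Sox7, Foxa2 and Hnf4a were examined across 34 single cells and 1 bulk library of rat converted hypoblast stem cells. They were chosen by name, as textbook regulators of the hypoblast, and not by their values here. Each matched 1 record of the 17201 transcript records measured, with no symbol spread over several records. The cells were rat embryonic stem cells differentiated for 12 days with PDGF, LIF and EGF in medium holding serum (FBS) at 2%, and the bulk population control carried the same labels for cell type and day. Both groups had this medium, and no genotype, strain or culture number is given in the labels. The 34 cells are therefore 1 sample and the bulk library another, and nothing below carries a test.

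Primitive endoderm, another name for the hypoblast, is a blastocyst layer from which the visceral and parietal endoderm of the yolk sac arise. In the mouse, Gata6 acts first in choosing this fate against the epiblast, and Gata4, Sox17 and Sox7 come on as the fate is set. GATA factors bind DNA through zinc fingers, SOX factors through an HMG box and Foxa2 through a forkhead domain that can open closed chromatin. Hnf4a is a nuclear receptor that drives the liver-like programme of the visceral endoderm in the mouse.

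Of the 7 factors, 3 matched an entry in the RefSeq promoter table used here (Gata6, Foxa2 and Hnf4a), and these are shown so that the motifs of the GATA, SOX and forkhead families can be seen before the factors' own genes. Gata4, Gata5, Sox17 and Sox7 are named only. Each line gives the 250 bases before the annotated start in the GRCr8 build, 5′ to 3′ along the gene's strand, and Hnf4a is given at the first of its 2 listed starts. Capitals mark matches on either strand to any of 3 sets of letters. The GATA set was AGATAA with AGATAG and TGATAA with TGATAG, the forkhead set was TGTTTAC with TGTTTGC and TGTTTGT with TGTTTAT, and the SOX set was ACAAT.
Gata6, chr18:2460659-2460908, plus strand: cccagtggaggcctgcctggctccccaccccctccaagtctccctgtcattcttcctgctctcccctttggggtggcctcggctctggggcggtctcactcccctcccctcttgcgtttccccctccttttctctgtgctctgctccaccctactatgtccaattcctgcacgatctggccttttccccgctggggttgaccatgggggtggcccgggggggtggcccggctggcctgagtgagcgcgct
Foxa2, chr3:155927509-155927758, minus strand: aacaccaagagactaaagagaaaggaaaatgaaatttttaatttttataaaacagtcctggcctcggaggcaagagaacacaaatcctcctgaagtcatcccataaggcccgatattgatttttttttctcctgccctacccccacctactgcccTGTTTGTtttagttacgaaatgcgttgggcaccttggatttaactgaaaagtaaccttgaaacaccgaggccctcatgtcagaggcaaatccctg
Hnf4a, chr3:172605970-172606219, plus strand: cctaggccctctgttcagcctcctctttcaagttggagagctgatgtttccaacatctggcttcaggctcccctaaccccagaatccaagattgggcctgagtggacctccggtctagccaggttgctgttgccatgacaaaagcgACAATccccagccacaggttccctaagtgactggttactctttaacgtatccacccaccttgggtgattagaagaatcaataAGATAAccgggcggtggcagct
The Gata6 window held none of these letters. The Foxa2 window held 1 forkhead match, TGTTTGT, which begins 95 bases before the start. The Hnf4a window held a GATA match, AGATAA, which begins 22 bases before the start, and a SOX match 104 bases before it, and the second Hnf4a window, not shown, held 1 forkhead match. Of 33469 RefSeq promoter windows of the same length, 27% held a GATA match, 15.5% a forkhead match and 30% a SOX match. The motifs searched do not overlap one another in these 3 windows, and a match is a description of letters only.

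Library totals ranged from 6288 to 503044 reads in the cells (median 266046) and came to 47121 reads in the bulk library. Levels are given as CPM, a gene's reads scaled to the total of its library. They are not divided by transcript length, so levels are compared between libraries and not between genes. A single read was worth 1.99 to 159 CPM in a cell and 21.2 CPM in bulk. A factor was called detected at 5 CPM or more. Gene-rich cells are the 23 with at least 50000 reads and at least 2500 genes with a read. The 11 others include C94 and C88, the shallowest (6288 and 12750 reads), and C03, C74 and C95, which held 217328 to 450250 reads but 1556 to 1830 genes with a read. Cells are called by their labels.

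Both leading GATA factors were present in most cells. Gata6 ranged from 0 to 3198 CPM with a median of 238 CPM over the 34 cells, and averaged 346 ± 569 CPM (SD). It was detected in 28 cells (82.4%, exact 95% binomial interval 65.5% to 93.2%) and had 0 reads in the other 6. C03 stood highest, with 695 reads or 3198 CPM, ahead of C45 with 1166 CPM, and the mean without C03 was 260 ± 269 CPM. Among the 28 cells with Gata6, the lowest was C46 with 2 reads or 20.97 CPM.

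Gata4, which in the mouse follows Gata6 in the same lineage, ranged from 0 to 1512 CPM with a median of 168 CPM, and averaged 258 ± 310 CPM. It was detected in 26 cells (76.5%, interval 58.8% to 89.3%). The highest cell was C95, with 681 reads or 1512 CPM, followed by C26 with 757 CPM, and the mean without C95 was 220 ± 220 CPM. Gata5, another GATA factor of endoderm and heart, had 1 read in all the cells, in C54, the deepest library, and was detected in 0 of 34 cells, an interval up to 10.3%. In that cell Gata6 had 164 reads and Gata4 288.

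The SOX factors were seen less evenly. Sox17, an HMG-box factor of primitive and definitive endoderm, was detected in 24 cells (70.6%, interval 52.5% to 84.9%) with a median of 23.8 CPM and a range of 0 to 11765 CPM. The highest value came from C88, where 150 of 12750 reads were Sox17, and this cell held 86.8% of the summed CPM. The next cell, C47, had 593 CPM, and the mean without C88 was 54.3 ± 106 CPM.

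Sox7, its close relative in the parietal endoderm of the mouse, was detected in 12 cells (35.3%, interval 19.7% to 53.5%), so its median over the 34 cells was 0 CPM. Within those 12 cells it reached 913 CPM with a median of 56.1 CPM. C47 was again at the top, with 100 reads, ahead of C96 with 268 CPM and C44 with 239 CPM. The mean of 53.4 ± 165 CPM became 27.4 ± 64.5 CPM without C47, which held 50.2% of the signal.

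Foxa2, a forkhead factor shared by visceral and definitive endoderm, was detected in 19 cells (55.9%, interval 37.9% to 72.8%). It had a median of 9.71 CPM and a maximum of 326 CPM in C24, and averaged 57.6 ± 83.2 CPM. No single cell dominated it, since C24 held 16.7% of the signal. Hnf4a was detected in 1 cell, C33, with 14 reads or 42.5 CPM. C43 held 1 further read and all other cells 0.

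C33 was also the only cell with reads of Apoa4, an apolipoprotein gene of visceral endoderm and gut (38 reads, 115 CPM), a pairing that was picked out after the values were seen. It held 0 reads of Ttr, Alb, Apoa1, Apob, Rbp4, Afp and Apom.

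**Figure D1:**
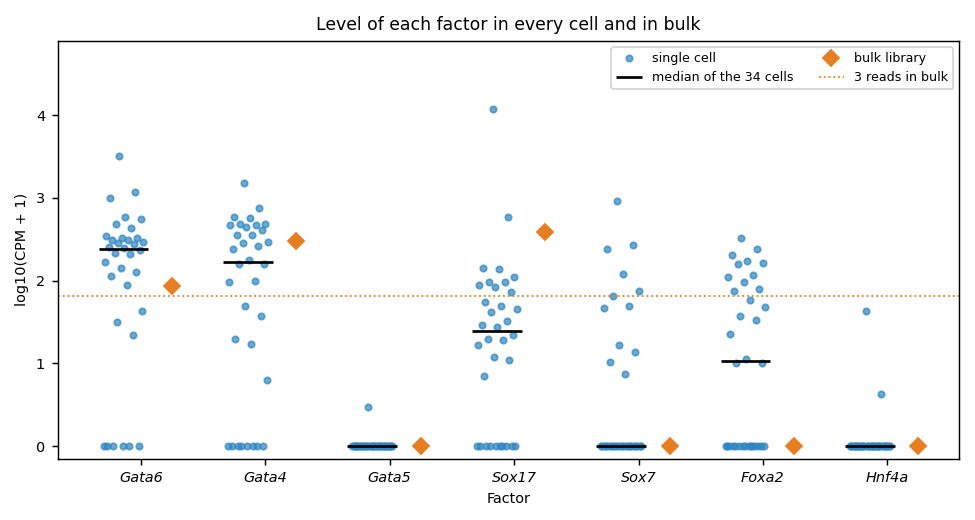
Level of each factor as log10(CPM + 1) in 34 single cells (blue points, black line at their median) and in the bulk library (orange diamond); the dotted line marks 3 bulk reads, 63.7 CPM. Gata6 and Gata4 have medians of 238 and 168 CPM in the cells, while the medians of Gata5, Sox7 and Hnf4a are 0, and the single point above 4 on the axis is Sox17 in C88.

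Of the 7 factors, 4 (Gata6, Gata4, Sox17 and Foxa2) were detected in at least 17 cells, against 27.1% of all 10784 genes with a read. Gata5 was the 1 factor detected in no cell, against 4.79% of all genes. The counts depend on the threshold, and more so for the SOX and forkhead factors than for the GATA factors. At 50 CPM, Gata6 was found in 25 cells, Gata4 in 21, Foxa2 in 12, Sox17 in 11 and Sox7 in 6. When 30 cells were thinned to 50000 reads each, which left out the 4 shallower cells, at least 1 read remained for Gata6 in 26 cells, Gata4 in 24, Sox17 in 17, Foxa2 in 16 and Sox7 in 9. In the same 30 cells before thinning the numbers were 27, 26, 23, 19 and 12. In the 23 gene-rich cells Gata6 and Gata4 were each detected in 21 cells, Sox17 in 20, Foxa2 in 16 and Sox7 in 10.

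The cells fell into 16 combinations of the 7 factors, counting the absence of all as 1. The largest class held Gata6, Gata4, Sox17, Sox7 and Foxa2 together, in 8 cells (C05, C13, C15, C23, C24, C44, C47 and C96). The next held all of these but Sox7, in 6 cells (C10, C25, C27, C43, C72 and C80). In 4 cells (C26, C31, C32 and C54) Gata6, Gata4 and Sox17 occurred without Foxa2 or Sox7. Gata6, Gata4 and Foxa2 without a SOX factor were found in C38 and C45, and Gata6 alone in C14 and C46. A further 10 combinations were seen in 1 cell each, and C30 and C94 had none of the factors.

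**Figure D2:**
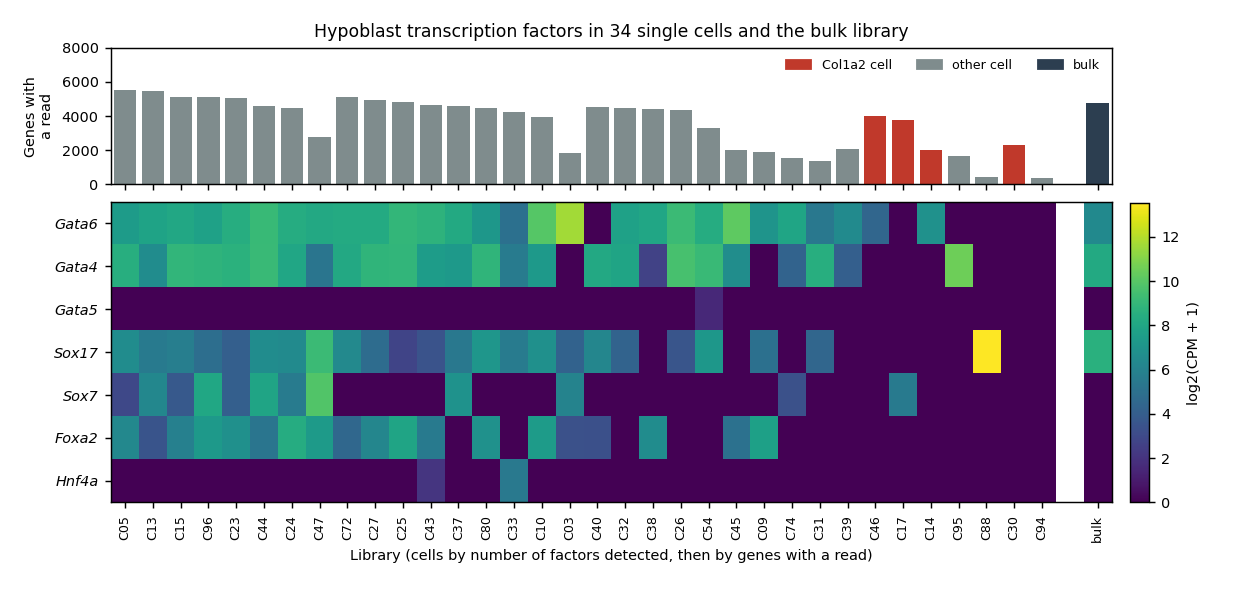
Each column is a library and each row a factor, coloured by log2(CPM + 1); cells run from 5 factors on the left to 0 on the right, with the bulk library last, and the bars above give genes with a read. Red bars are the 4 cells with Col1a2, which hold 0 or 1 factor; the 8 leftmost cells hold Gata6, Gata4, Sox17, Sox7 and Foxa2.

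Grouped by family, 30 of 34 cells had Gata6 or Gata4 and 24 had both. Gata6 without Gata4 was seen in 4 cells (C03, C09, C14 and C46) and Gata4 without Gata6 in C40 and C95. A SOX factor was detected in 26 cells. Of these, 10 had Sox17 and Sox7, 14 Sox17 alone and 2 (C17 and C74) Sox7 alone. All 19 cells with Foxa2 also had Gata6 or Gata4, and 17 of them had a SOX factor as well. A SOX factor without a GATA factor was detected in C17 and C88. At 50 CPM, 18 cells held Gata6 with Gata4, 2 cells held Sox17 with Sox7, and no cell held all 5 of the frequent factors.

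The share of Gata6 among the Gata6 and Gata4 reads is a ratio within a cell and needs no library total. Over the 24 cells with both factors it ran from 10.5% in C31 to 98.0% in C38, with a median of 49.7%, and 16 of these cells lay between 25% and 75%. At the extremes were cells with 1 of the factors only. C95 had 0 of 681 such reads from Gata6, which allows a share up to 0.540%, and C03 had 695 of 695 from Gata6 (lower bound 99.5%). These intervals cover the counting error of independent reads. The labels name no molecular identifiers, and over all genes 59.8% to 72.6% of the nonzero counts of a cell were even. Of the nonzero counts, 57.1% were even for Gata6 (16 of 28 cells) and 88.5% for Gata4 (23 of 26). Whether the 2 mates of a pair were counted separately is not given in the sources used here. Reads can therefore not be taken as independent molecules, and the intervals may be too narrow. C03 and C95 held only 1830 and 1642 genes with a read.

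**Figure D3:**
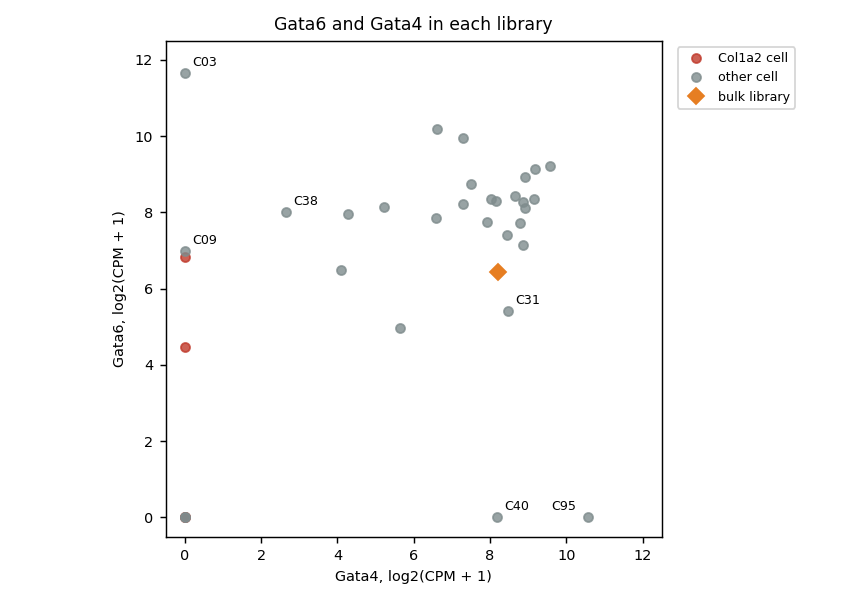
Gata6 against Gata4 in each library, both as log2(CPM + 1), with the 4 Col1a2 cells in red, the other cells in grey and the bulk library as an orange diamond. Most cells hold both; C03, C09, C14 and C46 lie on the axis without Gata4, and C40 and C95 on the axis without Gata6.

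A median of 3.5 factors was detected per cell, and no cell had more than 5. There were 8 cells with 5 factors, 9 with 4, 9 with 3, 1 with 2, 5 with 1 and 2 with 0. The number moved with the complexity of the library. Its Spearman correlation with genes having a read was 0.73 across 34 cells and 0.59 across the 23 gene-rich cells, and with total reads it was 0.35 and −0.12. In the 30 cells thinned to 50000 reads the correlation with genes was 0.37. All 8 cells with 5 factors were gene-rich, and cells with 1 factor had a median of 1993 genes. The genes per cell and the factors come from the same libraries, and their part in the combinations was not tested.

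**Figure D4:**
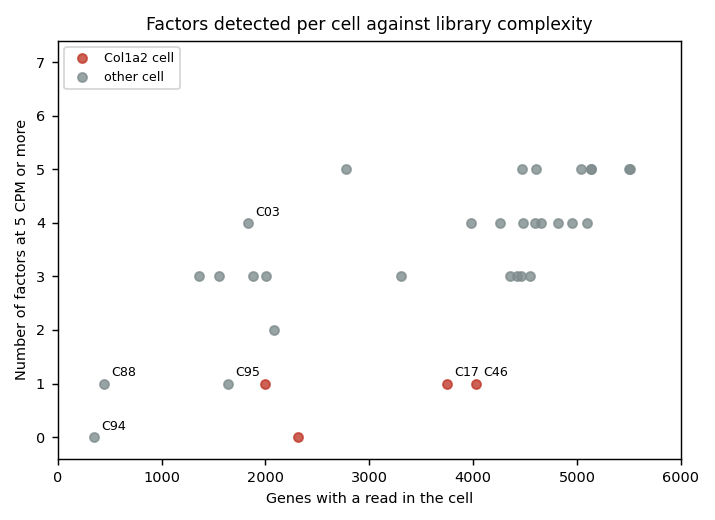
Number of the 7 factors at 5 CPM or more in each of the 34 cells against the number of genes with a read, with Col1a2 cells in red. Cells with 5 factors have 2777 to 5514 genes with a read; C17 and C46 have 3752 and 4028 such genes but 1 factor each.

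The 4 cells with Col1a2, a fibrillar collagen gene of fibroblasts, nearly lacked the factors. C14, C17, C30 and C46 held 9 factor reads in all: 6 of Gata6 and 3 of Sox7. The other 30 cells held 7397. The factor reads of a cell summed to 0 to 112 CPM in the Col1a2 cells (median 33.6 CPM) and 0 to 11765 CPM in the other cells (median 868 CPM), and the ranges overlap because C94 had none and C39 had 105 CPM. Gata4, Sox17 and Foxa2 had 0 reads in all 4. Depth differed as well, at 27284 to 95359 reads in the Col1a2 cells and a median of 296706 in the others. The Col1a2 cells held 0 to 4 factor reads each, and 5 other cells of 61770 to 124152 reads (C09, C31, C39, C45 and C47) held 13 to 218. C14 and C30, at 35681 and 27284 reads, have no other cell near their depth, and the 2 shallower cells, C88 and C94, held 150 and 0 factor reads.

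Col1a2 chose these cells, so the fibroblast list is given without it. Of the 4 other markers (Col1a1, Col3a1, Thy1 and Pdgfrb), 3 were detected in the Col1a2 cells, with a summed level of 0 to 1121 CPM and 0 in C46. In the other cells 2 were detected and the sum was 0 to 408 CPM, at 0 in 26 of the 30, so the ranges overlap. The 408 CPM were 26 reads of Col1a1 in C09, which is among the cells of like depth named above. C09 had 0 reads of Col1a2 and held 23 factor reads, of Gata6, Sox17 and Foxa2. Thy1 had 0 reads in every cell. Matrix genes differed among themselves. Lama1, a laminin chain gene, had a median of 15.4 CPM in the Col1a2 cells and 2902 CPM in the other cells. Col4a1, a type IV collagen gene, was detected in 3 of the 4, with medians of 164 and 1979 CPM in the Col1a2 and the other cells. Sparc, a matrix glycoprotein gene, was detected in all 4 Col1a2 cells, at 273 to 4596 CPM, against a median of 3332 CPM in the other cells. What these cells are was not tested. Without them Gata6 and Gata4 were each detected in 26 of 30 cells, Sox17 in 24, Foxa2 in 19 and Sox7 in 11.

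Pairs of factors were then compared across cells. Of the 10 pairs among Gata6, Gata4, Sox17, Sox7 and Foxa2, all 10 met in more cells than the product of their detected shares. Neither this count nor that of the gene-rich cells below was made over pairs of all genes. Cells ran from 349 to 5514 genes with a read, so the count cannot be read as particular to these factors. Gata6 and Gata4 met in 24 cells, against 21.4, Sox17 and Foxa2 in 17, against 13.4, and Gata4 and Sox7 in 10, against 9.18. In the gene-rich cells 8 of the 10 pairs exceeded that number, and the widest gap was that of Gata4 and Sox17, in 20 cells against 18.3. This gap comes from C17 and C46, the 2 Col1a2 cells among them, which lacked both factors. Every other gene-rich cell had Gata4, so without these 2 cells the pair could show no gap. All 5 factors met in 8 cells, against a product of 2.98 over all cells, against 5.04 over the gene-rich cells, and against 6.22 over the 21 gene-rich cells without Col1a2. In those 21 cells the variance of the number of factors was 0.629, and the sum of the variances of the single factors was 0.590. With all 34 cells the 2 values were 2.37 and 1.07.

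Levels were compared too, with cells of 0 reads included. Spearman's rho of log2(CPM + 1), given as a description of cells that differ in depth and have no culture number, was above 0 for all 10 pairs over 34 cells, with a median of 0.27. The highest was Gata6 with Foxa2, at 0.49, then Sox17 with Foxa2 and Gata6 with Gata4, at 0.38 each. It was lowest for Gata4 with Sox7, at 0.04. The share of all genes with a rho above 0 was not computed over the 34 cells. Held against genes with a read, as a partial correlation, it was 0.39 for Gata6 with Foxa2, 0.25 for Gata6 with Gata4 and −0.15 for Gata4 with Sox7. Within the gene-rich cells that had both factors of a pair, rho ran from −0.23 for Gata4 with Sox7 (9 cells) to 0.37 for Gata6 with Gata4 (20 cells). There it was also below 0 for Gata6 with Sox17 (−0.20), Gata4 with Sox17 (−0.12) and Gata4 with Foxa2 (−0.03), and above 0 for the remaining pairs.

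Over the 23 gene-rich cells Gata6 with Gata4 was the highest pair, at 0.47. Of 5416 genes, 1.46% had a rho with Gata6 at least as high, and 3.08% had such a rho with Gata4. Depth moved with both, at a rho of 0.44 with total reads for each. Given total reads, the partial correlation of Gata6 with Gata4 was 0.34, and that of Sox17 with Sox7 was 0.39. Without the Col1a2 cells C17 and C46, Gata6 with Gata4 had a rho of 0.33, and 6 of the 10 pairs were above 0, with a median of 0.07. Over all genes there, the share with a rho above 0 ran from 40.8% for Sox17 to 55.4% for Gata4. No pair exceeded 0.5 in any of these sets of cells. Sox17 with Sox7 (0.25) and Sox7 with Foxa2 (0.24) were the 2 that changed least on leaving out cells, against 0.25 and 0.27 over all cells.

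**Figure D5:**
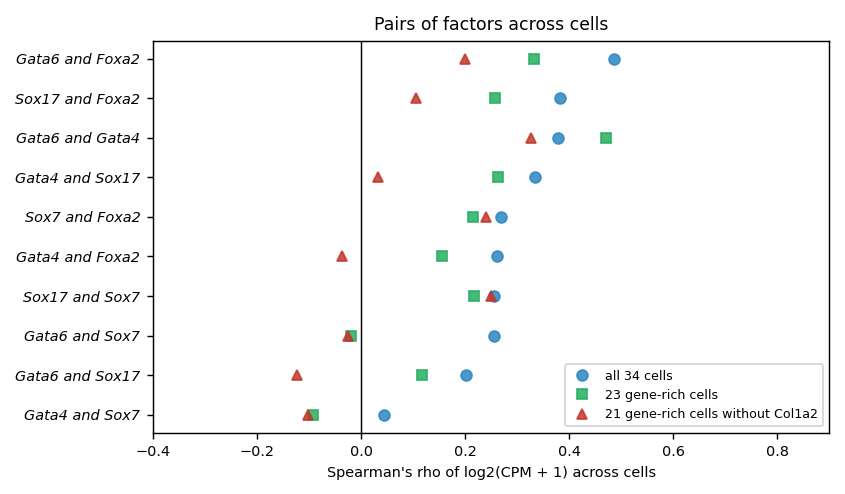
Spearman's rho across cells for the 10 pairs of the 5 frequent factors, over all 34 cells (circles), 23 gene-rich cells (squares) and 21 gene-rich cells without Col1a2 (triangles). The circles are all above 0, with Gata6 and Foxa2 highest at 0.49, and 4 of the triangles lie below 0.

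Effector genes of the lineage were next set beside the factors. Of 17 effector genes with a record, 11 were detected in at least 17 cells (27.1% of all genes were) and 1 in none, Bmp2. Those named by the rule of highest mean CPM, which favours long transcripts, were Lama1 (3163 ± 3837 CPM), Sparc, a matrix glycoprotein gene (2907 ± 2210 CPM), Lamc1, a second laminin chain gene (2428 ± 2211 CPM), and Col4a1, a type IV collagen gene (1591 ± 1237 CPM).

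In the 21 gene-rich cells without Col1a2, Foxa2 ran opposite to Dab2, an endocytic adaptor gene of the primitive endoderm. Their rho was −0.70, and 99.9% of 5416 genes had a higher or equal rho with Foxa2. The 16 cells of this set with Foxa2 had 0 to 911 CPM of Dab2, with a median of 246 CPM. The 5 cells under 5 CPM of Foxa2 (C26, C32, C33, C37 and C54) had 399 to 1354 CPM of Dab2, with a median of 717 CPM, so the ranges overlap. C24, the cell with the most Foxa2, had 0 reads of Dab2. Within the 16 cells with Foxa2 the rho was −0.51. In the 23 gene-rich cells it was −0.41 and over all 34 cells 0.04. C95, which is not gene-rich, had the most Dab2, 2061 CPM, and 0 reads of Foxa2. The pair was chosen after its values were seen.

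Sox7 ran opposite to Cubn, which encodes the endocytic receptor cubilin of the visceral endoderm. The rho was −0.60 in the same 21 cells, −0.54 in the 23 gene-rich cells and −0.21 over all 34. The 9 cells of this set with Sox7 had 0 to 208 CPM of Cubn (median 6.81 CPM), and the 12 without it had 0 to 1115 CPM (median 240 CPM). The ranges overlap, and C10, without Sox7, had 0 reads of Cubn. Depth moved with Sox7, whose rho with total reads was −0.53 in the 23 gene-rich cells, and the partial correlation of Sox7 with Cubn given total reads was −0.44 there and −0.62 in the 21 cells. This pair too was chosen after its values were seen. Sox7 with Dab2 had a rho of −0.42 in the 21 cells. Foxa2 with Cubn had a rho of −0.41.

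Laminin genes ran with Gata6 and Foxa2. Of 12 effector genes compared in the 23 gene-rich cells, 11 had a rho above 0 with Gata6 (50.3% of all genes did) and 11 with Gata4 (59.7%). The numbers were 9 with Foxa2 (54.1%), 7 with Sox7 (50.8%) and 4 with Sox17 (46.9%). Above the 95th percentile of all genes, a share of 5% by construction, lay 5 of the 12 for Gata6 (Pdgfra, Lama1, Lamc1, Col4a1 and Sparc) and 4 for Foxa2 (Pdgfra, Lama1, Lamc1 and Sparc). Lamc1 with Gata6 had a rho of 0.50 and Sparc with Foxa2 of 0.51.

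The Col1a2 cells carry part of this. Without C17 and C46 the numbers above 0 were 7 for Gata6 (43.3% of all genes), 6 for Gata4 (55.4%), 7 for Foxa2 (50.2%), 6 for Sox7 (51.8%) and 0 for Sox17 (40.8%). Lama1 and Lamc1 were then the 2 above the 95th percentile for Gata6, with a rho of 0.36 each. Lama1, Lamc1 and Sparc were the 3 for Foxa2, at 0.38, 0.38 and 0.40. Lama1 was also the 1 above it for Sox7, at 0.42, so its link was not particular to Gata6 and Foxa2. C54, the deepest cell, had 164 reads of Gata6, 288 of Gata4, 72 of Sox17 and 557 of Dab2, but 0 of Lama1, 4 of Lamc1, 8 of Col4a1 and 2 of Sparc. Without C54 as well, Foxa2 with Lama1 had a rho of 0.30, Gata6 with Lama1 of 0.42 and Foxa2 with Dab2 of −0.66.

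Among 7 relatives of the factors, 0 were detected in at least 17 cells, beside 27.1% of all genes, and 3 were detected in no cell (Gata3, Sox18 and Foxa3), beside 4.79%. Gata1, a blood GATA factor, was detected in 7 cells with a mean of 74.1 ± 271 CPM, and C31 held 52.9% of its signal. Sox2, a pluripotency SOX factor, was detected in 3 cells, and Gata2 and Foxa1 in 1 each.

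Of 12 other extraembryonic endoderm factors, Klf5 alone reached 17 cells, with 29, beside 27.1% of all genes. Snai1 and Foxq1 were each detected in 14 cells, Tfec in 2, and Prdm1, Snai2 and Cebpa in none at 5 CPM or more. Of 7 GATA cofactor genes, 4 were detected in at least 17 cells, beside 27.1% of all genes. These were the acetyltransferase gene Crebbp (30 cells), Ctnnb1, which encodes beta-catenin (27 cells), Smarca4, a chromatin remodeller gene (25 cells), and the demethylase gene Kdm1a (22 cells). The FOG genes, whose proteins bind GATA zinc fingers, were rarer, with Zfpm1 in 5 cells and Zfpm2 in 2.

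Markers of other tissues that use the same factors were set beside all genes. None of the definitive endoderm, endothelial or heart markers reached 17 cells, beside 27.1% of all genes. Over all genes, 4.79% were detected in no cell, and the median gene was detected in 26.5% of cells. Pecam1 and Tnnt2 lay above that median. Of 6 definitive endoderm and streak markers, Mixl1 was detected in 4 cells and the others in none, with 1 read of Cer1 and 0 reads of Tbxt, Gsc, Cxcr4 and Cdx2. Of 6 endothelial markers, which would go with Sox7 and Sox17, Kdr and Cdh5 had 0 reads in the cells, Pecam1 was detected in 11 cells, Tek in 3 and Tie1 and Vwf in 1 each. Of 5 heart markers, which would go with Gata4, Nkx2-5 and Myl7 had 0 reads, Myh6 had 2, Tnnt2 was detected in 13 cells and Actn2 in 4.

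Of 8 liver and visceral endoderm markers, which would go with Hnf4a, 2 were detected (Apom in 3 cells and Apoa4 in 1). None reached 17 cells, beside 27.1% of all genes. This list does not cover all genes of the visceral endoderm: Cubn, placed among the effector genes, was detected in 20 cells. Of 6 parietal endoderm markers, 5 were detected in at least 17 cells, beside 27.1% of all genes. These were Sparc, Col4a1, Srgn, Vim and Thbd, and the sixth, Plat, was detected in 1 cell. Gata6, Gata4 and the matrix genes Sparc and Col4a1 were each detected in most cells. Sparc was also detected in all 4 Col1a2 cells and Col4a1 in 3 of them. Whether the cells meet the hypoblast label was not tested. Of 6 pluripotency markers none reached 17 cells, beside the same 27.1% of all genes, with Dppa3 in 6, Tfcp2l1 in 9 and Pou5f1 in 3. Of 5 trophoblast markers none reached 17 cells either, with Tfap2c detected in 6 cells, Plac1 in 4 and Hand1 in 1.

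The bulk library is the population control, and it held 36 reads of the 7 factors. Only Gata6, Gata4 and Sox17 had reads there, 4, 14 and 18. The other 4 factors had 0, as did 47.5% of the 9023 genes compared. For these a fixed floor of 3 reads or 63.7 CPM was used, and the upper bound of the exact Poisson interval is 78.3 CPM. The cells' means of Gata5, Sox7, Foxa2 and Hnf4a were all under this floor, so no fold is given. In bulk RNA, fewer cells with a transcript and less transcript per cell cannot be told apart.

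Gata6 averaged 346 CPM in the cells and had 84.9 CPM in bulk (exact Poisson interval 23.1 to 217 CPM), and 25 of 34 cells lay above the bulk value. It was 1 of the 7.86% of genes at least 2-fold higher in the cells, with a ratio of 4.08 (1.59 to 14.98), and 3.06 without C03. The ratio was 5.84 with TMM scaling and 9.57 with DESeq2 size factors. Gata4 averaged 258 CPM in the cells and had 297 CPM in bulk (162 to 498 CPM), a difference within the counting interval. Its ratio of 0.867 was 1.01 with TMM scaling and 1.49 with DESeq2 size factors. Sox17 averaged 399 CPM in the cells and 54.3 CPM without C88, and had 382 CPM in bulk (226 to 604 CPM). Without C88 bulk was therefore 7.04-fold the cells' mean (4.17 to 11.1). When each gene's highest cell was left out in the same way, 27.9% of genes were at least 2-fold lower in the cells. Only C88 and C47 lay above the bulk level of Sox17.

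The make-up of the factor reads differed the same way. Sox17 took 8.07% of the 7406 factor reads of the cells and 6.17% without C88, and 50% of the 36 in bulk (interval 32.9% to 67.1%). In the 29 cells with at least 10 factor reads its share had a median of 6.23%, and C88 alone was above the bulk share. Next was C47 with 29.8%. Gata6 took 51.8% of the Gata6 and Gata4 reads of the cells (50.5% to 53.1%) and 22.2% of the 18 in bulk (6.41% to 47.6%). The interval of the pooled cells counts reads only. It leaves out the spread between cells, whose shares ran from 0% in C95 to 100% in C03. Of the 24 cells with both factors, 23 had a share above the bulk value of 22.2%. Their median, 49.7%, was close to the upper bound of the bulk interval. The bulk counts of Gata6, Gata4 and Sox17 (4, 14 and 18) were all even, and reads cannot be taken as independent molecules. The bulk intervals here and above may therefore be too narrow as well. The 4 fibroblast markers other than Col1a2 summed to a median of 0 CPM in the 30 cells without Col1a2 and to 870 CPM in bulk, and their part in these differences was not tested.

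The genes whose levels across the 23 gene-rich cells were most like each factor were ranked among 5416 genes. For Gata6 they were Eipr1 (rho 0.73), Them4 (0.71) and Klhl26 (0.67). For Gata4 they were Eprs1 (0.73), Atxn10 (0.72) and Mtmr1 (0.68). For Sox17 they were Pmpcb (0.67), Enah (0.66) and a record without a matched symbol, NM_001025667 (0.66). For Sox7 they were Nt5c3a (0.76), Clock (0.70) and Rdh10 (0.69), and for Foxa2 they were Lgr4 (0.76), Atg14 (0.71) and Nup62 (0.69).

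Over all 34 cells the 3 leading genes kept 1 member for Gata4 and Sox7 and none for the others. No other factor of the 7 was among the 3 for any factor: the closest was Gata4, which ranked behind 78 genes for Gata6. The highest of 5416 values over 23 cells is large by selection alone, and these lists are descriptions of these cells.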

How the data were processed

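Messenger RNA was measured in 34 single cells and 1 bulk population control. The labels' protocols name a C1 Auto Prep kit, which isolates cells in microfluidic chambers, and Nextera XT libraries. The authors deposited raw counts, 1 whole number per RefSeq transcript and library. TopHat2 and rn5 appear in the submitters' processing notes. Which counter, annotation and strand setting they used is not given in the sources used here.

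Records were matched by identifier to symbols in a RefSeq gene table (GRCr8): 16215 of 17201 matched. Counts were summed per symbol and scaled to CPM by library totals. Detection was 5 CPM or more. Shares have Clopper-Pearson and bulk reads Poisson intervals, both exact at 95%. These cover counting error only. A bulk count of 0 was taken as up to 3 reads, a fixed floor below the upper bound of the Poisson interval. Numbers expected from independence are products of detected shares. Spearman's rho used log2(CPM + 1), and the scan over genes was tested on simulated data. Genes entered it when detected in at least 8 of the 23 gene-rich cells. No doublet caller was run and no cell was left out of the main values.

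The named genes are the 7 factors, the 3 genes most like each, and the 4 genes of highest mean in each list; others are named where a count is spelled out or were chosen after their values were seen. The members, lists and patterns were chosen with earlier results of these data known, and some genes of the lists are not reported here. Python 3.11.15, scipy 1.17.1, edgeR 4.0.16 (TMM factors) and DESeq2 1.42.0 (size factors) were used. Alternatives were other detection thresholds, thinning, gene-rich cells, other scalings, leaving out the highest cell, pooling reads and partial correlation given genes with a read. Leaving out the cells with Col1a2, the 2 shallowest cells or C54, and conditioning on total reads, was chosen after seeing the data.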

Additional observations from a re-analysis of the deposited data

How the results depend on the processing

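Of 195 alternative values for 40 results, 166 stayed within the counting interval, spread or 1.5-fold limit of the reported value. For levels the limit was the SD over cells, which exceeded the mean of each frequent factor, so a fall of any size counted as within it. Sox17 was counted so at 54.3 CPM without C88, against 399 CPM. The 166 also hold the changes of pseudocount, so this number does not measure how stable the results are. The 54 alternatives of the correlations include the changes of pseudocount, which could not turn a sign. A correlation changed sign in 6 of the 54. Gata4 with Sox7 did so in gene-rich cells (−0.09), given genes with a read (−0.15) and without Col1a2 cells (−0.01). Gata6 with Sox7 did so in gene-rich cells (−0.02) and Gata6 with Sox17 without Col1a2 cells (−0.02). The ratio of cells to bulk crossed 1 in 8 of 15 alternatives, 3 of them for Gata4 (1.01 with TMM factors, 1.49 with DESeq2 size factors, 1.20 with pooled reads) and 5 for Sox17. At 50 CPM, Sox17 was detected in 32.4% of cells, Sox7 in 17.6%, Foxa2 in 35.3%, the 5 factors together in 0%, and 7 effector genes in at least 17 cells. In gene-rich cells Gata4 was detected in 91.3%, Sox17 in 87.0%, Gata6 with Gata4 in 87.0%, and a cell with none in 0%. The number of factors had a correlation with total reads of 0.35, which turned to −0.12 in gene-rich cells and 0.026 after thinning, and with genes having a read of 0.37 after thinning. The ratio of cells to bulk for Sox17, 1.04 over all cells, was 0.418 with TMM factors, 0.606 with DESeq2 size factors, 0.142 without C88, 0.196 in gene-rich cells and 0.194 with pooled reads, so its size rests on C88. The cause of the other shifts was not tested. A change of pseudocount cannot change a rank correlation. Levels per kilobase of coding length were not run, since no protein lengths were used here. Cells with few reads limit detection: a factor at 5 CPM needs 3 reads in the deepest cell, while 1 read in C94 is 159 CPM. No paired analysis was possible because the bulk control is 1 library and cells carry no pairing.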
